A study of Rattus norvegicus with 12 samples.

Results

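The genes described here encode the proteins that carry a cell from G2 through mitosis and cytokinesis: 36 symbols were listed and sought by name in the deposited gene table, and 33 of them had a row. All 33 passed the filter on low counts, among 12535 tested of 17419 genes in the table. Kif4a, Cenpe and Anln were not analysed here. The cells were cultures enriched for ventricular cardiomyocytes from wildtype newborn (P0) Sprague-Dawley rats, transfected with siRNA and collected 48 h later for RNA-seq of total RNA. The siRNAs were against Btg1, against Btg2, or a scramble control, and every culture received 20 nM of siRNA in all. The 4 groups of 3 libraries were 20 nM scramble, 10 nM Btg1 siRNA with 10 nM scramble (Btg1 knockdown), 10 nM Btg2 siRNA with 10 nM scramble (Btg2 knockdown), and 10 nM of each targeting siRNA (double knockdown). Fibroblasts were separated off before plating, but such cultures still hold other cell types, and the labels do not say whether the replicates of a group came from separate isolations, and the p-values here reflect library-to-library spread alone, which may be technical.

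Entry into mitosis is driven by Cdk1 bound to cyclin A2 and the B cyclins, and exit from it by the anaphase-promoting complex, which marks cyclins for destruction once the spindle checkpoint is satisfied. Most genes of this group are transcribed together late in the cell cycle, when the DREAM complex gives way to activators that hold MYBL2 and FOXM1. That timing is known to rest on CCAAT boxes, bound by NF-Y, and on the cell cycle genes homology region (CHR), an element close to the start site. Cardiomyocytes leave the cell cycle soon after birth, and many of the last cycles end without cytokinesis and leave binucleate cells. Btg1 and Btg2 encode related BTG/TOB family proteins known to restrain proliferation.

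Both promoter elements were common in the group. RefSeq promoter windows of the rat assembly GRCr8, from 250 bases before to 50 after each annotated start, were found for 30 of the 36 members. The windows were searched for CCAAT on both strands, and for the CHR-type letters TTTGAA on both strands and TTTAAA, which is its own reverse complement. Genes were counted, and a gene with more than 1 window, as Kif2c with 2, counted if any window matched. A CHR-type match was present in 28 of the 30 members (93.3%), against 19.2% of the 9810 tested genes with a window. Of all 27457 genes with a window, 29.7% had one. A CCAAT box was present in 23 members (76.7%), against 38.0% of tested genes and 39.6% of all genes. Both occurred together in a window in 22 members (73.3%), against 7.54% of tested genes and 12.1% of all genes. At least 2 CCAAT boxes were present in 17 members (56.7%), against 13.7% for tested genes. Among 78 further mitosis genes with a window, 46 (59.0%) held a CHR-type match, 43 (55.1%) a CCAAT box and 26 (33.3%) both. The Mybl2 window held neither, and the Cdc25b window held a CCAAT box but not the CHR-type letters. These are matches of letters around annotated starts and not measured sites, and an annotated start may lie away from the promoter.

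6 windows are printed, 5′ to 3′ on the gene's strand, with CCAAT boxes and CHR-type matches of either strand in capitals (ATTGG is CCAAT and TTCAAA is TTTGAA on the other strand). Prc1 had the largest rise of the members in the Btg1 knockdown against scramble and Kif23 the largest fall in the double knockdown against scramble, Aurka and Ttk the smallest departures from additivity, and Ccnb1 and Cdc20 stand for entry into and exit from mitosis. The deposited counts used the build rn5, so these GRCr8 positions serve only to place the sequences: Prc1 at chr1:143659231-143659530 on the plus strand, Kif23 at chr8:71320535-71320834 on the minus strand, Aurka at chr3:181560720-181561019 on the minus strand, Ttk at chr8:93634389-93634688 on the plus strand, Ccnb1 at chr2:33655176-33655475 on the minus strand and Cdc20 at chr5:137255750-137256049 on the minus strand. Each window covers 250 bases before and 50 after the annotated start, which may not be where transcription begins.
Prc1: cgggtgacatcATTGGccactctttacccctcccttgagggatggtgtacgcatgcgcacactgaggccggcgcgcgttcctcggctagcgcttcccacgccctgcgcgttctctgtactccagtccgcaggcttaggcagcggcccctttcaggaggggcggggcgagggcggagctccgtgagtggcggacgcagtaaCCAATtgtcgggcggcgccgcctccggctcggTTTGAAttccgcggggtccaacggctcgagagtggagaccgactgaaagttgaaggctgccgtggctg
Kif23: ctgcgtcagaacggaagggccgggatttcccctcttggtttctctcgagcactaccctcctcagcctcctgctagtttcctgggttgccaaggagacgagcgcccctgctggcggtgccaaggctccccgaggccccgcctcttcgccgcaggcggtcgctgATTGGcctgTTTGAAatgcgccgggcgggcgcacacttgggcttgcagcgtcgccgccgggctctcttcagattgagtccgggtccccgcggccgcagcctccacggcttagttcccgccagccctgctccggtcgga
Aurka: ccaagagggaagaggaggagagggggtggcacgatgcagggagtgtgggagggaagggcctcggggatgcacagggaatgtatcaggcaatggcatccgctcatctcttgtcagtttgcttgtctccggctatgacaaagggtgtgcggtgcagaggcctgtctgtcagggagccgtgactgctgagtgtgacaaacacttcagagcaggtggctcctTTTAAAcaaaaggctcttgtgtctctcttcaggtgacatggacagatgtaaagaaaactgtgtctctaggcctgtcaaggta
Ttk: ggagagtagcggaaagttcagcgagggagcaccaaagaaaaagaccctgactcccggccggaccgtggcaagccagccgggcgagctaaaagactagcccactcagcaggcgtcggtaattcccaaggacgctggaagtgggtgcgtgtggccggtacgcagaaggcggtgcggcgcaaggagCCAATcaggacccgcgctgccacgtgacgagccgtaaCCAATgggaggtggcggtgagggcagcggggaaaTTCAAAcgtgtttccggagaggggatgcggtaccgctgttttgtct
Ccnb1: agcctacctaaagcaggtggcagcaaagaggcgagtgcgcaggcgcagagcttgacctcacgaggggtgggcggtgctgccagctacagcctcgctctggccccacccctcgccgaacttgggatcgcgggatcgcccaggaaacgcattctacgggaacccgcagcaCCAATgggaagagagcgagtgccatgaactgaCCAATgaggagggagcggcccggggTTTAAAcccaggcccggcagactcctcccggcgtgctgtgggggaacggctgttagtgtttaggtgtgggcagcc
Cdc20: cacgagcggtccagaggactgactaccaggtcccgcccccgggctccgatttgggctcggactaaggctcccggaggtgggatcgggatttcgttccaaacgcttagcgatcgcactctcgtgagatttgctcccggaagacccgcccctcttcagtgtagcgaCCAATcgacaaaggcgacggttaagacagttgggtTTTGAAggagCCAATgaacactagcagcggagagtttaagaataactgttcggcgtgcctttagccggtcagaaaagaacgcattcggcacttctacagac
The Prc1 and Ccnb1 windows share a layout, a CCAAT box starting 50 bases before the annotated start in both and a CHR-type match starting 18 bases before it in Prc1 and 25 in Ccnb1. In Kif23 the CHR-type match lies 79 bases before the start, and in Ttk it begins just past the start. The Aurka window holds a CHR-type match but no CCAAT box. Its annotated start directly follows a stretch rich in c and t that ends in ag, as introns do. Whether this window is the Aurka promoter was not tested, so its match may not be a promoter element.

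**Figure D1:**
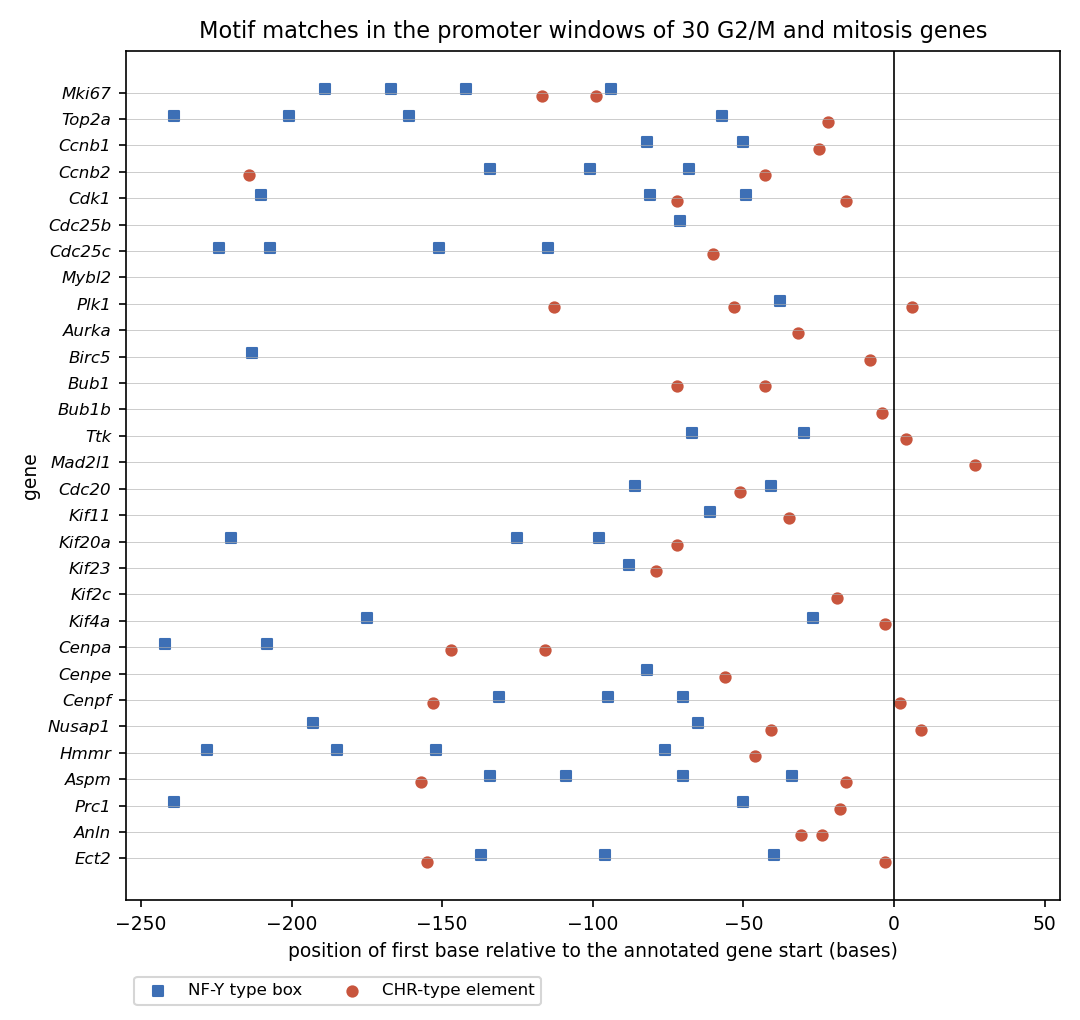
Positions of NF-Y type boxes (squares) and CHR-type elements (circles) in the promoter windows of 30 members, as bases from the annotated gene start (vertical line). The CHR-type matches of most genes lie in the last stretch before the start, and 28 of the 30 members hold at least 1.

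The libraries held 24434925 to 46206581 counts, and the lowest count of a member in any library was 85. Btg1 fell from a mean of 283 CPM (counts scaled to the library's size with TMM factors) in scramble to 66.2 with its siRNA alone and 51.7 with both, and was at 299 in the Btg2 knockdown. Btg2 fell from 139 CPM to 85.2 with its siRNA alone and 68.7 with both, so its knockdown left more of its transcript. In the Btg1 knockdown Btg2 rose to 175 CPM. Summed cardiomyocyte markers were above summed fibroblast markers in every library, at 26327 to 33583 CPM against 12430 to 16149 CPM, with 11 markers each. Such sums do not measure shares of cells, and which cells held the members' transcripts was not tested.

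In scramble cultures the members were expressed at a mean of 1.83 to 39.7 TPM (a level scaled to library size and transcript length), with a median of 11.4 against 23.6 for all tested genes. Cdk1 was highest at 39.7 ± 4.99 TPM (SD, n = 3), followed by the anaphase-promoting complex activator Cdc20 at 31.3 ± 3.04 and its ubiquitin-conjugating enzyme Ube2c at 25.8 ± 1.99, which did not differ beyond their spread from Prc1 at 25.6 ± 3.24. The lowest were the long spindle pole gene Aspm at 1.83 ± 0.231, Kif2c at 2.50 ± 0.361 and Cenpf at 3.33 ± 0.231 TPM.

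Knockdown of Btg1 alone and of Btg2 alone moved the group in opposite directions, and most of its members lay below scramble in the double knockdown as well. In the Btg1 knockdown 22 of 33 members rose and 0 fell against scramble in edgeR's quasi-likelihood test at an adjusted p of 0.05, with a median log2 change of 0.35 (all tested genes: 18.7% rose, 17.8% fell, median -0.0011). In the Btg2 knockdown 19 fell and 0 rose, with a median of -0.33 (all tested genes: 13.6% fell, 16.4% rose, median -0.0017). In the double knockdown 19 fell and 2 rose, also with a median of -0.33 (all tested genes: 19.5% fell, 19.4% rose, median -0.0061). At an unadjusted p under 0.05 in edgeR the counts of 0 were also 0, and DESeq2 and limma gave 0 for both as well. In bulk RNA, fewer cells in G2 or mitosis and less of each transcript per cell cannot be told apart.

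Single libraries carried part of these counts. Rises in the Btg1 knockdown numbered 13 without its replicate 3, and falls in the Btg2 knockdown numbered 11 without scramble replicate 3 and 12 without Btg2 knockdown replicate 1. Of the calls against scramble, 12 of 22 in the Btg1 knockdown (Aurka, Ccna2, Ccnb1, Cdk1, Cenpf, Ect2, Hmmr, Kif11, Mad2l1, Mki67, Plk1 and Prc1), 11 of 19 in the Btg2 knockdown (Aurka, Aurkb, Birc5, Bub1b, Ccnb1, Cdc20, Cdk1, Kif20a, Racgap1, Ttk and Ube2c) and 12 of 21 in the double knockdown (Aurkb, Birc5, Bub1b, Cdc20, Cdk1, Cenpa, Cenpf, Kif20a, Kif23, Mybl2, Plk1 and Ube2c) kept their side of the threshold under every alternative and without each library in turn.

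The members moved together within groups as well as between them. Relative to the scramble mean, their mean log2 level was -0.13, -0.01 and 0.15 in scramble replicates 1, 2 and 3, and 0.33, 0.14 and 0.45 in those of the Btg1 knockdown. It was -0.39, -0.27 and -0.23 in the Btg2 knockdown replicates and -0.41, -0.22 and -0.30 in the double knockdown replicates. The Btg2 and double knockdowns lay below all scramble libraries, whereas Btg1 knockdown replicate 2 overlapped scramble replicate 3. Scramble replicate 3 was the highest of its group for 29 of 33 members, against 32.9% of all tested genes, and scramble replicate 1 the lowest for 27. Btg1 knockdown replicate 2 was the lowest of its group for 31 members, against 33.2% of all tested genes. Because the members shared these library differences, they are not independent measurements of a condition.

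**Figure D2:**
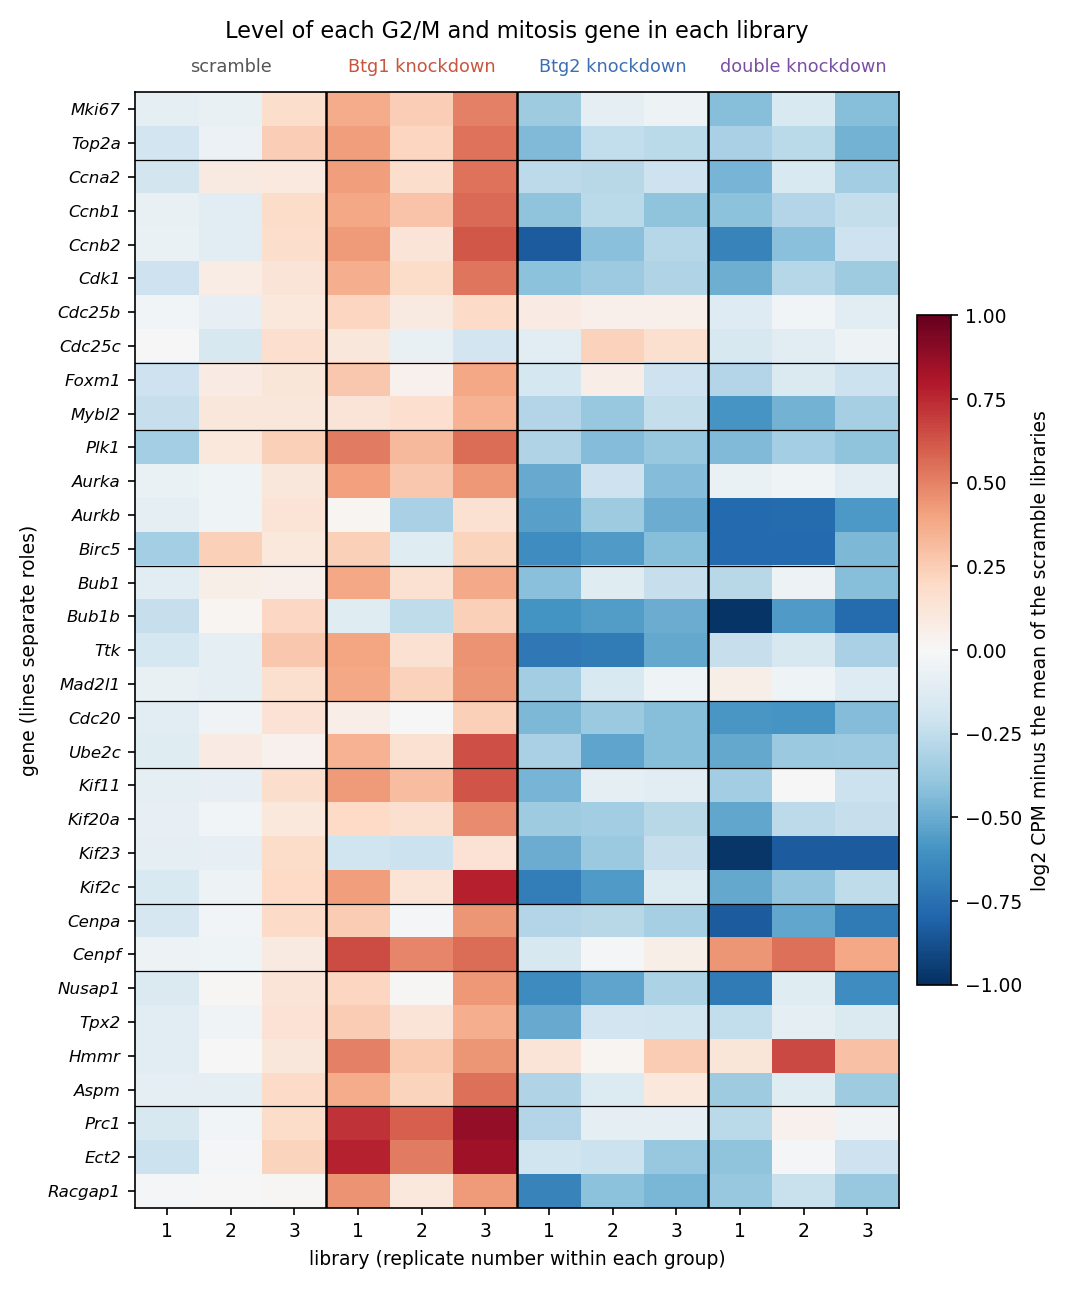
Level of each of the 33 members (rows, ordered by role) in each of the 12 libraries (columns), as log2 CPM minus the scramble mean. Most rows are red in the Btg1 knockdown and blue in the Btg2 and double knockdowns, with Cenpf and Hmmr red in the double knockdown.

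**Figure D3:**
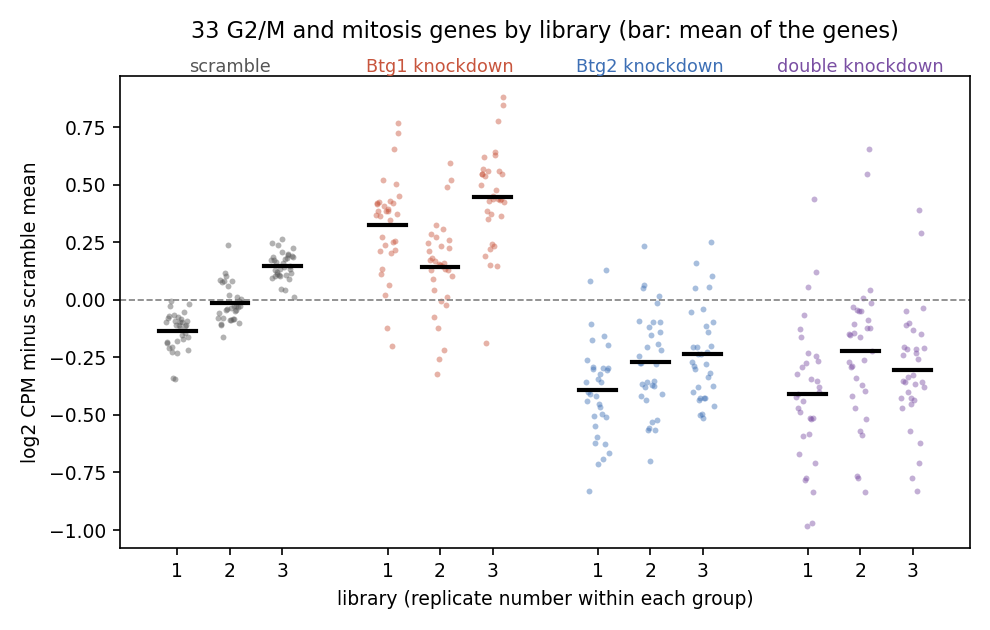
Each point is 1 of the 33 members in 1 library, as log2 CPM minus the scramble mean, and each bar is the mean over members. The bars run from -0.13 to 0.15 in scramble, from 0.14 to 0.45 in the Btg1 knockdown, and from -0.41 to -0.22 in the other two groups.

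Summed marker transcripts of other cell types also differed between groups. Summed fibroblast markers were at 15346 to 15908 CPM in scramble, 12430 to 14735 in the Btg1 knockdown, 15271 to 16149 in the Btg2 knockdown and 12502 to 13580 in the double knockdown. Against scramble 7, 6 and 9 of the 11 fell in these 3 groups, beside 17.8%, 13.6% and 19.5% of all tested genes. The sums were below scramble in the Btg1 and double knockdowns and overlapped it in the Btg2 knockdown. Summed levels of 10 endothelial markers were 123 to 130 CPM in scramble, 105 to 116 and 107 to 114 in the Btg1 and Btg2 knockdowns, and 86.6 to 91.6 in the double knockdown, and 2, 4 and 7 of the 10 fell. For 12 macrophage and leukocyte markers they were 53.6 to 63.6 CPM in scramble, 43.7 to 51.3, 40.7 to 43.2 and 47.5 to 48.8 in the Btg1, Btg2 and double knockdowns, and 3, 7 and 3 of the 12 fell. Summed levels of 4 epicardial markers were higher in both groups given Btg2 siRNA. They were 160 to 180 CPM in the Btg2 knockdown and 165 to 184 in the double knockdown. In scramble they were 124 to 129 CPM and in the Btg1 knockdown 125 to 128. Krt19, at a mean of 118 CPM over all libraries, made up most of these sums. In the Btg2 knockdown 1 of the 4 rose and 1 fell against scramble, and the same counts held in the double knockdown. For 6 smooth muscle markers the sums were 1776 to 1922 CPM in scramble and 1862 to 2047 in the double knockdown. In the single knockdowns of Btg1 and Btg2 they were 2003 to 2591 and 2003 to 2342 CPM. Against scramble 2, 1 and 3 of the 6 rose in the Btg1, Btg2 and double knockdowns, and 1 fell in each. Of 4 Schwann and neuronal markers tested, 2 fell with Btg1 siRNA alone and 2 with both. Cardiomyocyte markers summed to 27101 to 27955 CPM in scramble and 26327 to 29437 in the Btg1 knockdown. They summed to 30372 to 33583 CPM in the Btg2 knockdown and 29292 to 29609 in the double knockdown. Against scramble 3, 4 and 2 of the 11 rose in the Btg1, Btg2 and double knockdowns, and 4, 0 and 3 fell. Of all tested genes 18.7%, 16.4% and 19.4% rose in these groups. Among the markers reported here, the Schwann cell gene Sox10 and the erythroid gene Alas2 were at 0 in at least 1 library. The part of these cells in the members' changes was not tested.

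Among general markers of cycling cells, Mki67, a protein that coats mitotic chromosomes, stood at 34.7, 35.1 and 41.7 CPM in scramble, 47.7, 44.0 and 52.4 with Btg1 siRNA alone, 28.9, 34.7 and 35.7 with Btg2 siRNA alone, and 27.6, 33.3 and 27.5 with both. Every Btg1 knockdown library was above scramble and every double knockdown library below it, while the Btg2 knockdown overlapped scramble. Mki67 rose by 0.37 ± 0.10 log2 (± SE, as below) in the Btg1 knockdown (edgeR adjusted p = 0.008) and fell by 0.33 ± 0.10 in the double knockdown (edgeR adjusted p = 0.016). Its value in the Btg2 knockdown was -0.17 ± 0.10 (edgeR adjusted p = 0.23). Top2a, the topoisomerase that untangles sister chromatids, rose in the Btg1 knockdown by 0.39 ± 0.11 and fell with Btg2 siRNA alone and with both by 0.33 ± 0.11 and 0.37 ± 0.11.

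The cyclins and Cdk1 rose in the Btg1 knockdown and fell in the double knockdown, and the phosphatases Cdc25b and Cdc25c, which activate Cdk1, did not pass the test. Ccnb1, cyclin B1, stood at 18.9, 18.4 and 22.7 CPM in scramble, 26, 24.3 and 29.5 with Btg1 siRNA alone, 15.1, 16.5 and 15.1 with Btg2 siRNA alone, and 15.0, 16.3 and 16.9 with both. No library of a knockdown group overlapped scramble. It rose by 0.41 ± 0.08 in the Btg1 knockdown (edgeR adjusted p = 0.00041) and fell by 0.37 ± 0.09 with Btg2 siRNA alone (edgeR adjusted p = 0.0027) and 0.32 ± 0.09 with both siRNAs (edgeR adjusted p = 0.0053). Cdk1 was at 20.5, 25 and 25.9 CPM in scramble and 30.5, 26.9 and 34.4 in the Btg1 knockdown. Its Btg2 knockdown libraries were at 17.8, 18.4 and 19.2 CPM and its double knockdown libraries at 16.9, 19.4 and 18.5, all below scramble. It rose by 0.36 ± 0.09 in the first and fell by 0.37 ± 0.09 and 0.38 ± 0.09 in the others. Ccnb2, cyclin B2, rose by 0.40 ± 0.14 in the Btg1 knockdown and fell by 0.50 ± 0.15 and 0.42 ± 0.15 in the Btg2 and double knockdowns. Ccna2, cyclin A2, rose by 0.38 ± 0.10 and, in the double knockdown, fell by 0.33 ± 0.10, with -0.25 ± 0.10 in the Btg2 knockdown (edgeR adjusted p = 0.069). Cdc25b stayed between 17.7 and 22.4 CPM in the 12 libraries and Cdc25c between 4.9 and 6.58, and neither passed the test against scramble in any group, with log2 values from -0.11 to 0.17.

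Of the transcription factors that activate the group, Mybl2 fell in both groups given Btg2 siRNA and Foxm1 did not pass the test against scramble. Foxm1 was at 13.2 ± 1.58 CPM (SD, n = 3) in scramble, 15.5 ± 1.85 in the Btg1 knockdown, 12.3 ± 1.27 with Btg2 siRNA alone and 11.3 ± 0.591 with both. Its differences from scramble of 0.23 ± 0.10, -0.12 ± 0.10 and -0.22 ± 0.10 did not pass (edgeR adjusted p = 0.076, 0.41 and 0.087). Mybl2 stood at 8.84, 11.2 and 11.2 CPM in scramble, 8.45, 7.97 and 8.80 with Btg2 siRNA alone, and 6.87, 7.47 and 8.21 with both. All its Btg2 and double knockdown libraries were below scramble, and it fell by 0.31 ± 0.11 and 0.47 ± 0.11. In the Btg1 knockdown Mybl2 was at 0.20 ± 0.10 (edgeR adjusted p = 0.12).

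The kinases Plk1 and Aurka rose in the Btg1 knockdown, and the chromosomal passenger members Aurkb and Birc5 did not pass the test there. Of 6 further genes of that complex and of sister chromatid cohesion, 4 rose and 0 fell there, beside 18.7% and 17.8% of all tested genes. Plk1, which drives entry and spindle formation, stood at 12.6, 17.1 and 18.7 CPM in scramble, 22.8, 19.9 and 23.4 with Btg1 siRNA alone, 12.9, 11.8 and 12.2 with Btg2 siRNA alone, and 11.7, 12.6 and 12.1 with both. Scramble replicate 1 was as low as the Btg2 and double knockdown libraries, so these overlapped. Plk1 rose by 0.45 ± 0.10 in the Btg1 knockdown and fell by 0.39 ± 0.11 and 0.42 ± 0.11 in the Btg2 and double knockdowns. Aurka, the centrosomal Aurora kinase, rose by 0.37 ± 0.09 in the Btg1 knockdown (edgeR adjusted p = 0.0015) and fell by 0.39 ± 0.09 with Btg2 siRNA alone (edgeR adjusted p = 0.002). In the double knockdown it was at 12, 12.1 and 11.6 CPM against 11.9, 12.1 and 13.5 in scramble, a difference of -0.07 ± 0.09. Plk1 overlaps Ern2, and Aurka overlaps Fam210b, in the RefSeq annotation, and the strand used in counting is not given in the sources used here, so reads of such pairs cannot be told apart.

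Aurkb, the kinase of the chromosomal passenger complex, stood at 11.5, 11.9 and 13.5 CPM in scramble, against 12.4, 9.82 and 13.6 in the Btg1 knockdown, which overlapped. It was at 8.40, 9.57 and 8.68 CPM with Btg2 siRNA and 7.14, 7.21 and 8.26 with both, all below scramble. Aurkb fell by 0.48 ± 0.11 (edgeR adjusted p = 0.0021) and 0.70 ± 0.11 (edgeR adjusted p = 2.1e-05) in these groups. Birc5, or survivin, its partner in that complex, fell by 0.56 ± 0.14 with Btg2 siRNA alone and 0.68 ± 0.14 with both. In the Btg1 knockdown Aurkb and Birc5 were at -0.04 ± 0.11 and 0.10 ± 0.13 (edgeR adjusted p = 0.80 and 0.61).

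Among spindle checkpoint genes, Bub1b, which encodes the checkpoint protein BubR1, changed most in the double knockdown. It stood at 9.95, 11.8 and 13.5 CPM in scramble, 10.7, 9.77 and 13.8 with Btg1 siRNA alone, 7.70, 7.92 and 8.27 with Btg2 siRNA alone, and 5.89, 7.87 and 6.82 with both. The Btg2 and double knockdown libraries were all below scramble, and Bub1b fell by 0.56 ± 0.13 and 0.78 ± 0.13. Ttk, the kinase Mps1, stood at 8.36, 8.89 and 11.4 CPM in scramble, 5.76, 5.82 and 6.63 with Btg2 siRNA alone, and 8.06, 8.47 and 7.54 with both. It fell by 0.65 ± 0.12 with Btg2 siRNA alone (edgeR adjusted p = 0.00025), and in the double knockdown it was at -0.25 ± 0.11 (edgeR adjusted p = 0.088). Ttk, Bub1 and the checkpoint effector Mad2l1 rose in the Btg1 knockdown by 0.32 ± 0.11, 0.31 ± 0.09 and 0.35 ± 0.10. Bub1 fell by 0.26 ± 0.10 and 0.25 ± 0.10 in the Btg2 and double knockdowns, near the threshold in both (edgeR adjusted p = 0.047 and 0.048).

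Of the genes of the anaphase-promoting complex, Cdc20, its activator in mitosis, stood at 26, 27.4 and 31.0 CPM in scramble, 29.4, 28.0 and 33 with Btg1 siRNA alone, 20.5, 21.7 and 20.9 with Btg2 siRNA alone, and 18.7, 18.7 and 20.7 with both. The Btg1 knockdown overlapped scramble and the other two groups lay below it. Cdc20 fell by 0.42 ± 0.07 (edgeR adjusted p = 0.00015) and 0.54 ± 0.07 (edgeR adjusted p = 4.1e-06), with 0.10 ± 0.07 in the Btg1 knockdown. Ube2c, which loads ubiquitin for the complex, rose by 0.39 ± 0.11 in the Btg1 knockdown and fell by 0.42 ± 0.11 in each of the others.

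Kif23, the kinesin of the central spindle that cytokinesis requires, had the largest fall of the members in the double knockdown against scramble. It stood at 15.0, 15.2 and 18.2 CPM in scramble, 14, 13.8 and 17.8 with Btg1 siRNA alone, 11.4, 12.4 and 13.7 with Btg2 siRNA alone, and 8.19, 9.01 and 9.03 with both. The double knockdown libraries lay below those of every other group. Kif23 fell by 0.36 ± 0.10 with Btg2 siRNA alone (edgeR adjusted p = 0.01) and 0.88 ± 0.11 with both siRNAs (edgeR adjusted p = 6.2e-07), and its mean CPM dropped by 45.7%. Kif11, the motor that separates spindle poles, and Kif2c, a microtubule depolymerase, rose in the Btg1 knockdown by 0.45 ± 0.11 and 0.46 ± 0.15. Their values in the double knockdown were -0.18 ± 0.11 and -0.39 ± 0.16, neither of which passed (edgeR adjusted p = 0.22 and 0.068). Kif20a, another central spindle kinesin, rose by 0.28 ± 0.08 and fell by 0.33 ± 0.08 in both the Btg2 and double knockdowns. Kif11 overlaps Ide and Kif20a overlaps Cdc23 in the annotation.

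The centromere and kinetochore genes went opposite ways in the double knockdown. Cenpf, a large kinetochore and nuclear matrix protein, stood at 16.4, 16.5 and 18.2 CPM in scramble, 26.8, 23.9 and 25.1 with Btg1 siRNA alone, 15.3, 16.9 and 17.7 with Btg2 siRNA alone, and 23.1, 24.9 and 22.3 with both. Every library with Btg1 siRNA was above every library without it. Cenpf rose by 0.57 ± 0.07 with Btg1 siRNA alone (edgeR adjusted p = 1.6e-06) and 0.46 ± 0.07 with both siRNAs (edgeR adjusted p = 2.7e-05), with -0.04 ± 0.08 in the Btg2 knockdown. Cenpa, the centromeric histone H3 variant, was at 3.87, 4.27 and 4.96 CPM in scramble and at 2.43, 3.03 and 2.65 in the double knockdown, where it fell by 0.69 ± 0.15 (edgeR adjusted p = 0.00074). Its values in the Btg1 and Btg2 knockdowns were 0.22 ± 0.14 and -0.31 ± 0.15 (edgeR adjusted p = 0.23 and 0.12).

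Hmmr, a spindle assembly factor and hyaluronan receptor, was the other member that rose in the double knockdown. It stood at 15.8, 17.0 and 18.4 CPM in scramble, 24.2, 20.4 and 23.1 with Btg1 siRNA alone, 18.6, 17.2 and 20.3 with Btg2 siRNA alone, and 18.5, 26.8 and 20.8 with both. Double knockdown replicate 2 stood above the rest, and replicate 1 was close to scramble replicate 3. Hmmr rose by 0.40 ± 0.11 with Btg1 siRNA alone and 0.37 ± 0.11 with both (edgeR adjusted p = 0.0084 and 0.014), and the second call was lost without double knockdown replicate 2 and without scramble replicate 1. Nusap1, which bundles spindle microtubules, fell by 0.48 ± 0.14 and 0.47 ± 0.14 in the Btg2 and double knockdowns, and it overlaps Ndufaf1 in the annotation. Tpx2, which activates Aurora A, rose by 0.25 ± 0.08 in the Btg1 knockdown and fell by 0.30 ± 0.09 in the Btg2 knockdown. Aspm rose by 0.38 ± 0.11 in the Btg1 knockdown and did not pass in the others, at -0.11 ± 0.12 and -0.28 ± 0.12.

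The cytokinesis genes Prc1 and Ect2 had the largest rises of the members in the Btg1 knockdown against scramble. Prc1, which bundles the antiparallel microtubules of the central spindle, stood at 33.8, 37.1 and 42.9 CPM in scramble, 62.4, 57.0 and 69.5 with Btg1 siRNA alone, 30.7, 35.3 and 35.3 with Btg2 siRNA alone, and 31.4, 38.9 and 36.9 with both. Ect2, the exchange factor that activates RhoA at the division plane, stood at 13.8, 15.9 and 18.7 CPM in scramble, 27.3, 22.9 and 28.8 with Btg1 siRNA alone, 13.9, 13.7 and 12.3 with Btg2 siRNA alone, and 12.1, 15.8 and 13.8 with both. For both genes the 3 Btg1 knockdown libraries stood above the other 9, and the double knockdown overlapped scramble. Prc1 rose by 0.73 ± 0.10 (edgeR adjusted p = 3.9e-05) and Ect2 by 0.71 ± 0.11 (edgeR adjusted p = 3.8e-05), while in the double knockdown they were at -0.09 ± 0.10 and -0.21 ± 0.11 (edgeR adjusted p = 0.54 and 0.15). Racgap1, the partner of Kif23 in centralspindlin, rose by 0.34 ± 0.10 in the Btg1 knockdown and fell by 0.51 ± 0.11 and 0.32 ± 0.11 in the Btg2 and double knockdowns. Kif23 was at -0.09 ± 0.10 in the Btg1 knockdown, and the difference between the partners was not tested.

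**Figure D4:**
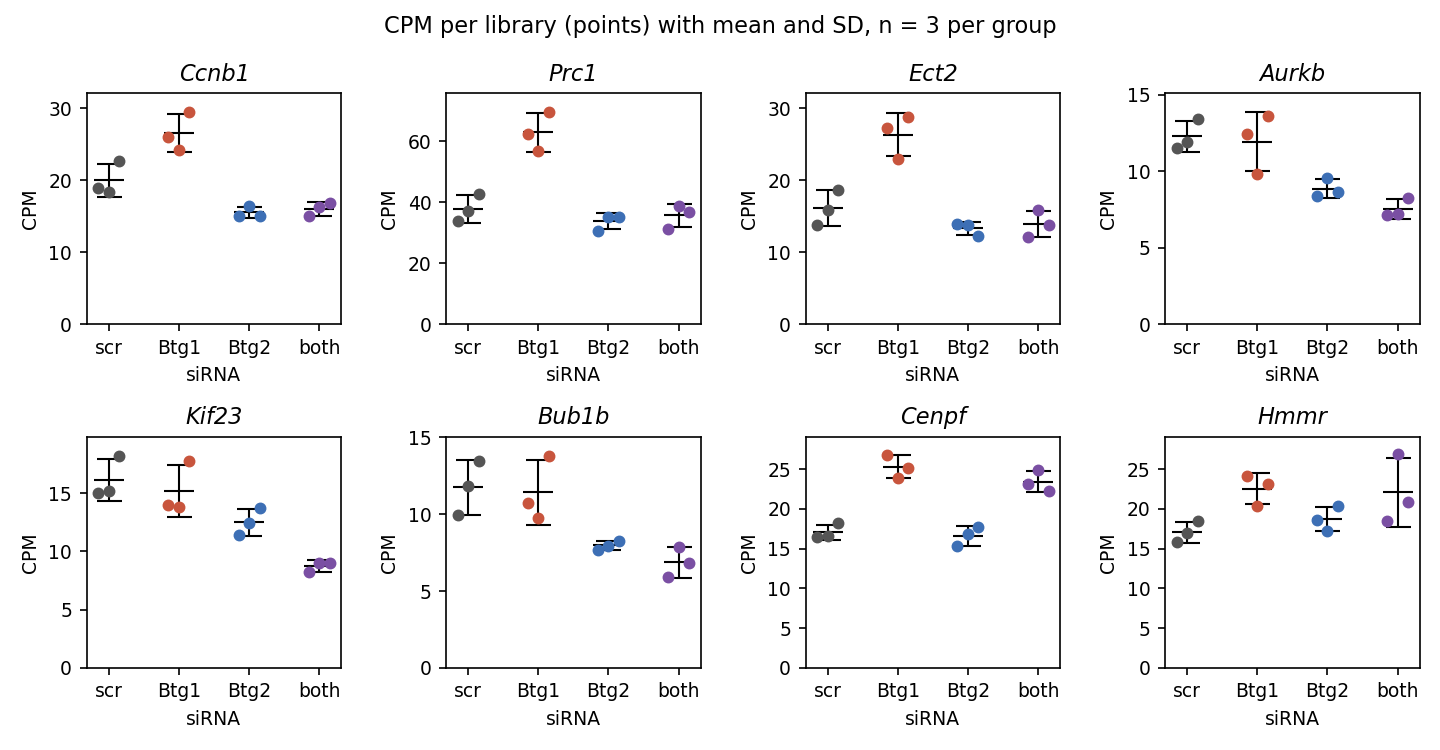
CPM of 8 members in each library (points) with the mean and SD of each group (n = 3; scr is scramble, both is the double knockdown). Prc1 and Ect2 are high in the Btg1 knockdown alone, Aurkb, Kif23 and Bub1b are low where Btg2 siRNA was given, and Cenpf is high in both groups that received Btg1 siRNA.

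The 3 comparisons above share the scramble libraries, so a high or low scramble library moves all of them. Comparing the knockdown groups with each other leaves the scramble libraries out. Adding Btg2 siRNA to Btg1 siRNA lowered most of the group: against the Btg1 knockdown, 30 of 33 members fell in the double knockdown and 0 rose, with a median of -0.68 (all tested genes: 11.9% fell, 10.3% rose). The falls ran to -0.92 ± 0.11 for Ect2, -0.91 ± 0.15 for Cenpa and -0.86 ± 0.11 for Plk1, and the members not called were Cdc25c, Cenpf and Hmmr at -0.06 ± 0.13, -0.11 ± 0.07 and -0.03 ± 0.11. All 30 falls kept their call under each alternative and without each library in turn. Foxm1 and Cdc25b, which did not pass against scramble, fell here by 0.45 ± 0.10 and 0.26 ± 0.07.

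Adding Btg1 siRNA to Btg2 siRNA changed 4 members. Against the Btg2 knockdown, Aurka, Ttk and Cenpf rose by 0.32 ± 0.09, 0.40 ± 0.12 and 0.50 ± 0.07 and Kif23 fell by 0.52 ± 0.11 in the double knockdown, 3 rises and 1 fall of 33 (all tested genes: 15.2% rose, 17% fell). The median was -0.0040. Cenpf and Kif23 kept their calls without each library in turn, and without Btg2 knockdown replicate 1 the rises numbered 1, those of Aurka and Ttk being lost. Without double knockdown replicate 2 the falls numbered 2, with Cenpa added, and the call of Ttk was lost. Between the single knockdowns, 30 members were higher in the Btg1 knockdown and 0 were lower, with a median of 0.61 (all tested genes: 20.3% higher, 20.6% lower). The differences were largest for Ect2 at 0.99 ± 0.11, Ttk at 0.97 ± 0.12 and Kif2c, Prc1 and Ccnb2 at 0.90 ± 0.16, 0.90 ± 0.10 and 0.90 ± 0.15. For the counts of 0 in these comparisons, edgeR at an unadjusted p under 0.05 and the adjusted tests of DESeq2 and limma also gave 0.

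Each siRNA could thus be read on separate libraries, without and with the other. The Btg2 siRNA lowered 19 members alone and 30 when added to Btg1 siRNA, and 19 fell in both. With 30 of 33 falling when it was added, most falls seen alone had to recur, whichever members they were. Over all tested genes, 538 of the 1709 that fell alone fell in both, but there only 11.9% fell when it was added. The log2 change had the same sign on both backgrounds in 30 of 33 members, against 7450 of all 12535 tested genes. Because all 33 members lay below 0 when it was added, those 30 are simply the members below 0 alone. The Pearson correlation of the log2 changes over the 33 genes was 0.68 (Spearman 0.47), against 0.21 over all tested genes. The Btg1 siRNA raised 22 members alone and 3 when added to Btg2 siRNA, with 3 in both. Over all tested genes, 979 of the 2342 that rose alone rose in both. For the Btg1 siRNA 20 of 33 members had the same sign on both backgrounds, against 8176 of all 12535 tested genes, and the Pearson correlation was 0.62 against 0.45 over all tested genes. Genes of a library share its depth and scaling, so these correlations are descriptions across genes.

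The interaction of the 2 siRNAs, the change with Btg2 siRNA in Btg1 knockdown cultures minus that in scramble cultures, tests whether their effects add on the log2 scale. It was below 0 at an adjusted p of 0.05 in 8 of 33 members and above 0 in 0, with a median of -0.32 (all tested genes: 10.1% below, 4.99% above, median 0.0091). At an unadjusted p under 0.05 it was below 0 in 18 members and above 0 in 0, and DESeq2 and limma also gave 0 above. The 8 members were Mki67, Ccna2, Ccnb1, Cdc25b, Plk1, Aspm, Prc1 and Ect2, and those of Prc1 (-0.64 ± 0.14, edgeR adjusted p = 0.007) and Ect2 (-0.64 ± 0.16, edgeR adjusted p = 0.01) kept their call under all alternatives. Prc1 changed by -0.17 ± 0.10 with Btg2 siRNA in scramble cultures and by -0.82 ± 0.10 in Btg1 knockdown cultures. The values nearest 0 among the others were -0.05 ± 0.12 for Aurka and 0.07 ± 0.16 for Ttk. The count of 8 became 13 without scramble replicate 3 or Btg1 knockdown replicate 2, and 2 to 5 without any one of scramble replicates 1 and 2, Btg1 knockdown replicates 1 and 3, Btg2 knockdown replicates 2 and 3, and double knockdown replicates 1 and 3. It was 5 with scaling by library size alone and 2 with limma on TPM.

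**Figure D5:**
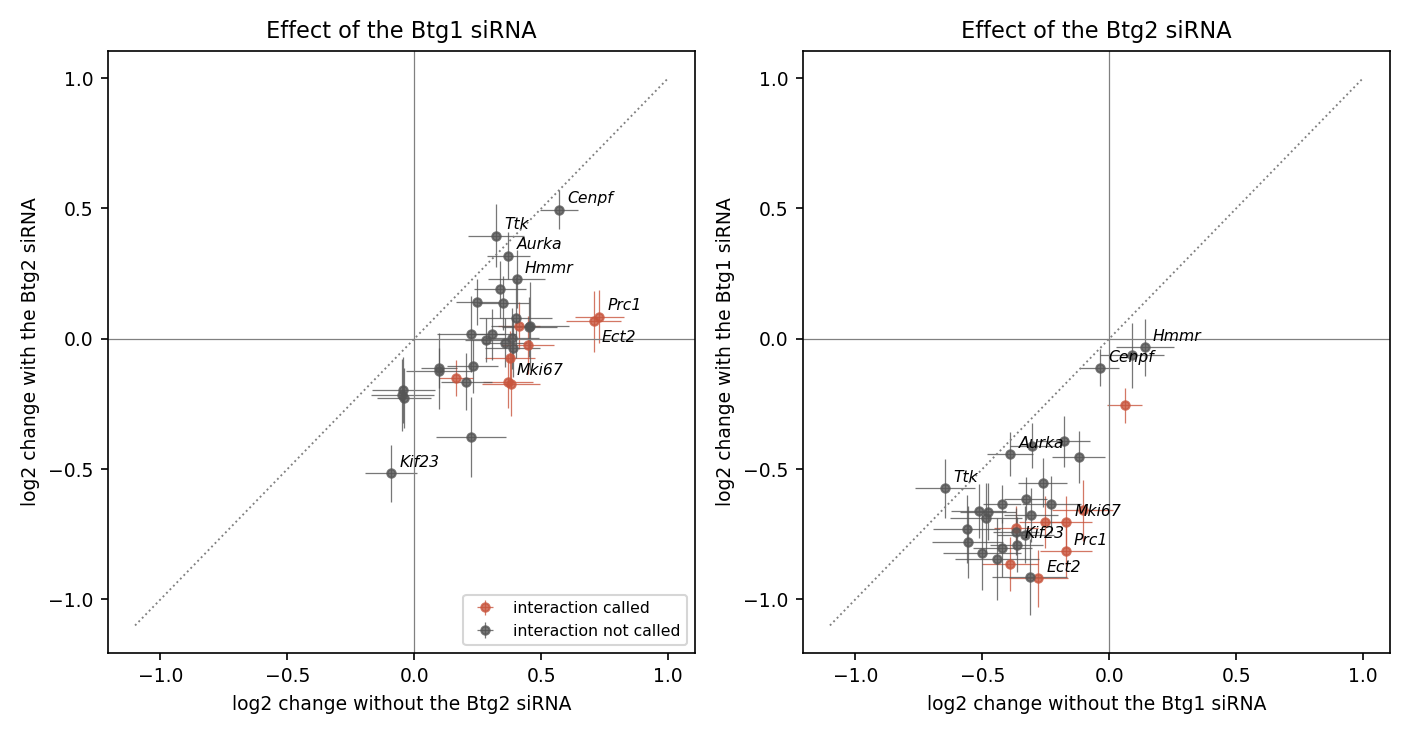
Log2 change (± SE) of each of the 33 members with the Btg1 siRNA (left) and the Btg2 siRNA (right), without the other siRNA on the x axis and with it on the y axis. Dotted lines mark equal change, red points the 8 members with a called interaction. With Btg2 siRNA most members lie below the line, and with Btg1 siRNA most lie to the right of 0 and near 0 on the y axis.

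Of 111 further mitosis symbols outside the group, 91 were in the table and tested, with medians in the same directions as the members in the comparisons with scramble. In the Btg1 knockdown 35 rose and 4 fell (median 0.22), beside 18.7% and 17.8% of all tested genes. Btg2 siRNA alone gave 9 rises and 23 falls (median -0.13), beside 16.4% and 13.6%. The double knockdown gave 6 rises and 24 falls (median -0.15), beside 19.4% and 19.5%, so its falls were not far above the background. Against the Btg1 knockdown 51 fell and 2 rose in the double knockdown, with a median of -0.34, beside 11.9% and 10.3%. Iqgap3, a scaffold of the cell cortex, rose by 0.79 ± 0.11 in the Btg1 knockdown, and Kif22, a chromosome-arm kinesin, fell by 0.59 ± 0.10 in the Btg2 knockdown. Kntc1, a kinetochore component, fell by 0.79 ± 0.12 in the double knockdown.

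Of the further genes named, some rose in each comparison with scramble. Zwint, which links kinetochore subunits, rose by 0.57 ± 0.04, 0.26 ± 0.04 and 0.62 ± 0.04 in the Btg1, Btg2 and double knockdowns. Cdc25a, the phosphatase of the Cdc25 family that also acts at the start of S phase, rose by 0.32 ± 0.05, 0.48 ± 0.05 and 0.64 ± 0.05. The anaphase-promoting complex subunits Cdc26 and Cdc27 rose in all 3 as well, by 0.71 ± 0.07 and 0.26 ± 0.06 in the double knockdown. Mybl1, a relative of Mybl2, rose by 0.47 ± 0.08 and 0.50 ± 0.08 in the single knockdowns and was at 0.04 ± 0.08 in the double knockdown. Of 14 further subunits and regulators of the anaphase-promoting complex, 2 rose and 3 fell in the Btg1 knockdown, 3 rose and 2 fell in the Btg2 knockdown, and 2 rose and 1 fell in the double knockdown, shares near or below those of all tested genes given above. Of 12 genes of the DREAM complex and its relatives, 3 rose with Btg1 siRNA alone, 1 rose and 1 fell with Btg2 siRNA alone, and 2 fell with both, beside that same background.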

How the data were processed

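RNA-seq counts and TPM values for 12 libraries, deposited by the authors, were used. Per the labels' protocols, total RNA was amplified (Ovation RNA-Seq System v2), made into Nextera XT libraries and read in pairs, so reads are not independent molecules. The submitters' processing notes list the build rn5 and, without versions, featureCounts, STAR, cutadapt, Trim Galore and FastQC. The annotation was not given in the sources used here, nor was the strand used in counting. One table deposited by the authors holds raw counts and another holds TPM rounded to 0.1. TPM served for levels between genes and as an alternative scale.

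Groups came from the sample titles. edgeR 4.0.16 (R 4.3.3) tested the counts with its quasi-likelihood F test (robust dispersions, TMM, filterByExpr, all 12 libraries, 1 mean per group, 8 residual degrees of freedom). P-values were Benjamini-Hochberg adjusted over 12535 genes in each of 7 comparisons and called at 0.05. Filtering removed 4884 genes, with a common biological coefficient of variation of 4.97%. Each standard error was taken as the size of the log2 change divided by √F. The code was tested on simulated data. All members were named, and up to 4 further mitosis genes per comparison with scramble by smallest p. Members and lists were chosen with earlier results of these data known.

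Alternatives were DESeq2 1.42.0, limma 3.58.1 on log2(TPM + 1) and log2(TPM + 0.1), RLE or library-size scaling, other count filters, only the groups compared, a replicate block, a length offset, and leaving out each library.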

Additional observations from a re-analysis of the deposited data

Results flagged for a closer look

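The change with either siRNA differed with the presence of the other, by the interaction test in edgeR's fit, in 8 members and in 6 other named genes. On the log2 scale the interaction was -0.53 for Mki67, -0.45 for Ccna2, -0.36 for Ccnb1, -0.32 for Cdc25b, -0.47 for Plk1, -0.55 for Aspm, -0.64 for Prc1 and -0.64 for Ect2. Among the further mitosis genes it was -0.48 for Cdc27, -0.80 for Iqgap3, -0.92 for Mybl1 and -0.21 for Zwint. For the siRNA targets themselves it was -0.44 for Btg1 and -0.65 for Btg2, so the transcript left in the double knockdown was lower than the single knockdowns would give if they added. Only the calls of Prc1 and Ect2, among the 8 members, held under every alternative and without each library in turn.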

How the results depend on the processing

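Of 134 member calls in the 7 comparisons, 114 held under every alternative that kept all libraries and 97 also held without each library in turn. No called value changed sign. When libraries were left out in turn, the double knockdown had 1 to 2 members higher and 13 to 21 lower than scramble, the Btg1 knockdown 13 to 24 higher, and the Btg2 knockdown 11 to 21 lower. Against the Btg2 knockdown, 1 to 4 members were higher and 1 to 2 lower in the double knockdown, and limma on log2(TPM + 0.1) gave 2 lower. The interaction below 0 was called in 2 to 13 members without single libraries, in 5 with scaling by library size alone, in 2 with limma on either TPM scale, and in 12 with DESeq2. Over all tested genes, same-numbered libraries of different groups did not deviate together (correlations of -0.092 to 0.060 over 18 pairs). The numbers were therefore not taken as pairs, but the members alone were not tested this way. Their mean log2 level was lowest at replicate 1 for scramble (-0.13), Btg2 siRNA alone (-0.39) and both siRNAs (-0.41). With Btg1 siRNA alone it was lowest at replicate 2 (0.14). Replicate 3 was the highest of each group except with both siRNAs, where replicate 2 was (-0.22). With a replicate block the interaction was called below 0 in 11 members, and the counts against scramble were 22 higher in the Btg1 knockdown, 19 lower in the Btg2 knockdown, and 2 higher and 19 lower in the double knockdown. Against the Btg1 knockdown the replicate block gave 30 lower in the double knockdown, against the Btg2 knockdown 3 higher and 1 lower, and 30 higher in the Btg1 than in the Btg2 knockdown. With 3 libraries a group, calls near the threshold depend on single libraries.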
